A study of Homo sapiens with 16 samples.

Results

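The respiratory chain and ATP synthase of the mitochondrial inner membrane are built mostly from subunits encoded in the nucleus. The set described here holds 75 such genes, out of 19775 genes measured on the array. They were chosen by symbol from the array's gene annotation: NDUF genes of complex I without assembly factors (33 genes), SDH genes of complex II (3), UQCR genes and CYC1 of complex III (7), COX genes of complex IV (15) and ATP5 genes of complex V (17). The rule uses symbols and no measured value, and a gene with several probe sets is represented by the brightest of them on average. NDUFS5, NDUFS8, NDUFC2, SDHB, UQCRFS1 and UQCRH were not analysed here. COXFA4, a complex IV subunit once named NDUFA4, has a symbol outside the rule and is not counted.

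Complex I passes electrons from NADH, and complex II from succinate, to ubiquinone. Complex III hands them to cytochrome c and complex IV to oxygen, and complex V uses the resulting proton gradient to make ATP. The nuclear-encoded subunits are translated on cytosolic ribosomes and imported, so their supply depends on how well cytosolic ribosomes read their mRNAs. The mTOR kinase, through the 4E-BP repressors of cap-dependent initiation, is known to control translation of some of these mRNAs.

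Cells of the human pancreatic carcinoma line MIA PaCa-2 were given either 2.5 µM PP242, which blocks the mTOR kinase in both of its complexes, or the DMSO vehicle, and were collected after 12 hours. All cultures were of this 1 line, so no result extends to other pancreatic tumours. Cytosolic RNA and the RNA of gradient fractions carrying more than 3 ribosomes (polysome RNA) were each hybridised, which gave cytosolic vehicle, cytosolic PP242, polysome vehicle and polysome PP242 groups of 4 arrays. Since nothing in the labels states that replicates came from separate cultures, the spread behind the p-values may be only technical.

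The values are log2 levels, and the cytosolic and polysome arrays look normalized apart: array medians were 5.0 to 5.05 in cytosolic and 4.57 to 4.63 in polysome RNA. A treatment difference therefore compares an mRNA with the rest of its pool, and a loss of mRNA from polysomes common to all genes would not appear. The carcinoma markers KRT8, KRT18 and VIM had mean levels of 12.43, 13.78 and 14.18, whereas CDH1, which is low in this line, had 3.44. The 4 measured markers of normal pancreas lay between 2.74 and 5.18, the 3 of leukocytes between 3.17 and 5.39, and the 4 of endothelium between 2.72 and 5.84. Among 5 fibroblast markers, DCN and LUM were at 5.18 and 3.27 but COL1A2 was at 11.54. COL1A2 was also lower with PP242 on polysomes (-0.85 ± 0.21 SE, adjusted p = 0.00996 in limma), and the mean of the 5 markers was 6.62 to 6.82 on polysome vehicle and 6.41 to 6.57 on polysome PP242 arrays. In cytosolic RNA COL1A2 fell by 0.66 (adjusted p = 0.0378) and KRT8 and KRT18 rose by 0.86 and 0.78 (adjusted p = 0.00416 and 4.43e-05); KRT18 also rose on polysomes, by 0.39 (adjusted p = 0.0163). The part of these markers in the results below was not tested. The cytosolic PP242 arrays varied most. The median SD of a member was 0.302 there and 0.13 with vehicle, whereas on polysomes it was 0.142 with PP242 and 0.153 with vehicle.

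The set was bright as a whole, with 70 members at a mean of at least 9 over the 16 arrays. The other 5, COX6A2, COX6B2, COX7A1, COX7B2 and ATP5MF, had means under 6 and are named for that. The first 4 of these encode isoforms typical of muscle or testis, and ATP5MF encodes the f subunit of ATP synthase.

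With PP242, mRNAs of the respiratory chain were mostly at slightly lower levels on polysomes. Of the 75 members 8 fell (adjusted p under 0.05 in limma, with Benjamini-Hochberg adjustment over all 19775 genes), and 0 rose; at an unadjusted p under 0.05 there were 24. Of the 8, 5 belong to complex V, 2 to complex I and 1 to complex III, and they fell by 0.37 to 0.80 on the log2 scale. Over all genes, 6.55% fell and 6.82% rose. Among the 2630 genes with a mean of at least 9, 17.7% fell, so the share of members called (10.7%) was above that of all genes and below that of genes of like brightness. In direction, 64 members were below 0, 10 were above and 1 was at 0. The median over members was -0.18, against -0.005 over all genes and -0.10 over the bright genes. The groups did not overlap in 21 members on the lower side (28% of members, and 30.0% of the bright ones), against 9.86% of all genes and 25.6% of the bright genes, and in 1 member, NDUFA13, on the higher side.

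Arrays with the same replicate number deviated together, so the number was also fitted as a block. With it, 25 of 75 members fell and 0 rose: 10 of complex I, 2 of complex II, 3 each of complexes III and IV, and 7 of complex V. All 8 genes called without the block remained. By the same fit 9.72% of all genes fell and 10.6% rose, and 26.7% of the bright genes fell, against 35.7% of the bright members. After quantile normalization or cyclic loess of all 16 arrays together 5 members were called, and the median was -0.11 and -0.08; leaving out replicate number 1, 2 or 4 left 3, 2 and 4 calls, all among the 8.

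**Figure D1:**
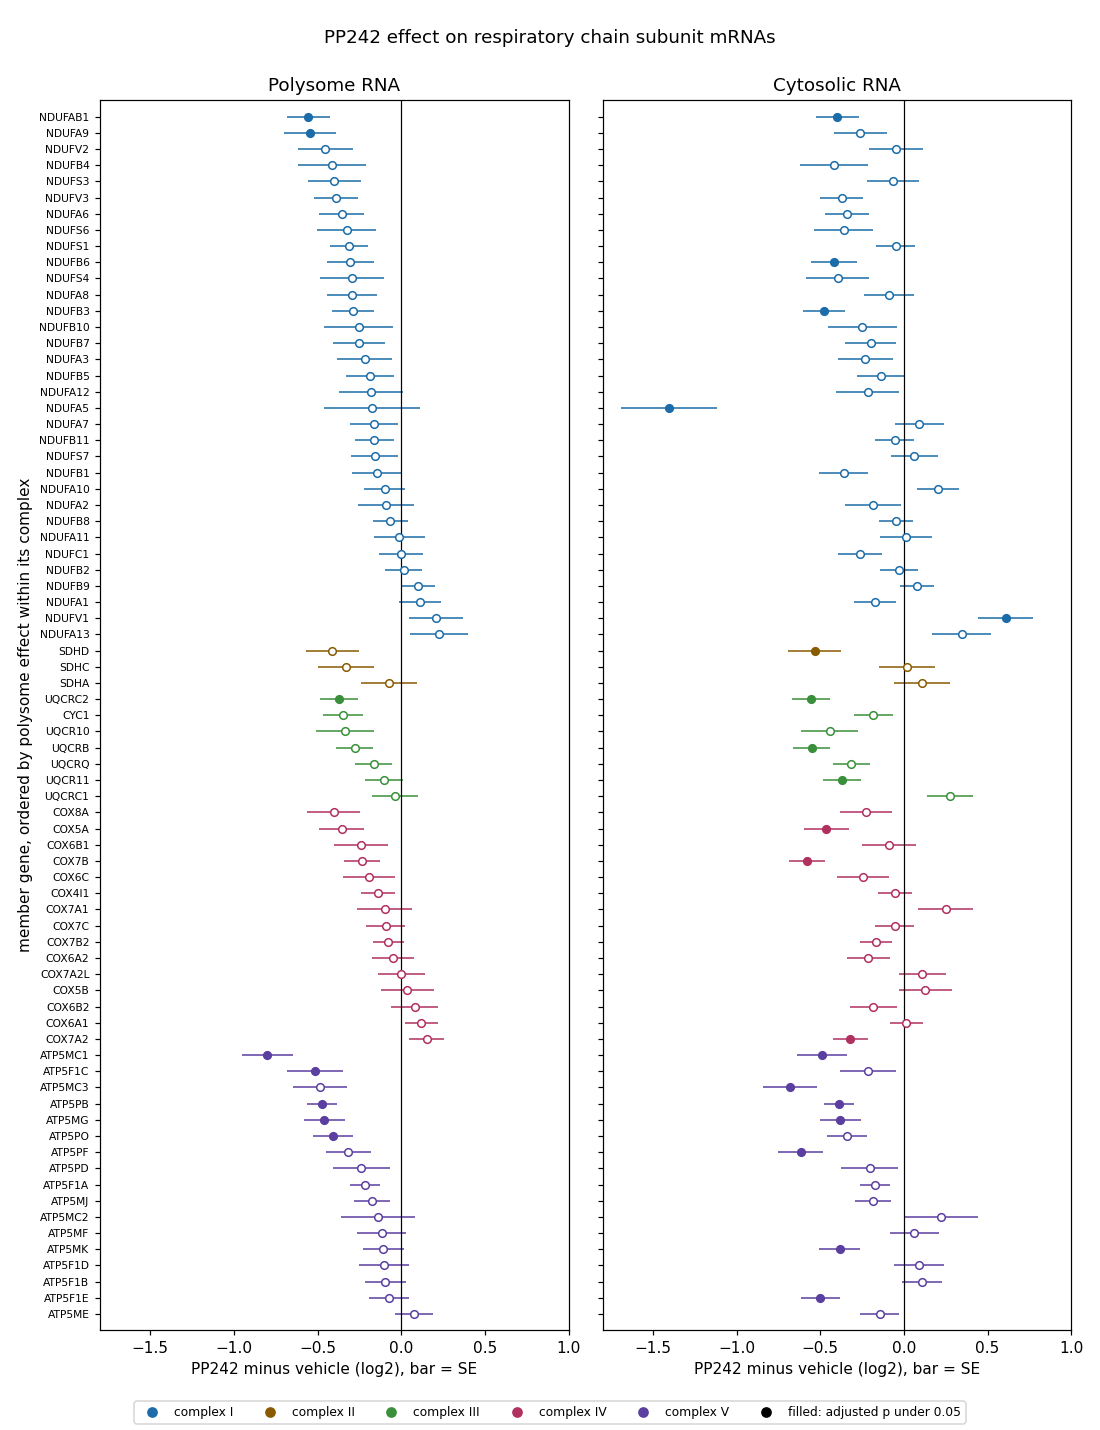
Difference between PP242 and vehicle (log2, x axis) for each of the 75 members (y axis, coloured by complex), in polysome RNA on the left and cytosolic RNA on the right, with the standard error from limma as a bar and filled points for adjusted p under 0.05. On polysomes 64 of 75 points lie left of 0 with ATP5MC1 lowest at -0.80, and in cytosolic RNA NDUFA5 at -1.40 and NDUFV1 at 0.61 stand at the ends.

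In complex V 5 of 17 genes fell on polysomes (7 with the block). ATP5MC1, ATP5MC2 and ATP5MC3 encode the same mature c subunit, the proteolipid of the membrane ring that protons turn. ATP5MC1 read 10.74, 10.61, 10.57 and 10.87 on polysomes with vehicle and 9.84, 9.69, 9.94 and 10.12 with PP242. The groups did not overlap, and the difference of -0.80 ± 0.15 (SE; 95% interval -1.12 to -0.48; adjusted p = 0.00114) is a level lower by 42.6%. It was the only member past 1.5-fold. ATP5MC3 read 12.68, 12.62, 12.30 and 12.51 with vehicle and 12.24, 12.17, 11.58 and 12.18 with PP242, again without overlap. Its difference of -0.48 ± 0.16 missed the threshold without the block (adjusted p = 0.0536) and passed with it (adjusted p = 0.00104). For ATP5MC2 the groups overlapped, at 10.20 to 11.05 with vehicle and 10.05 to 10.74 with PP242, and the difference was -0.14 ± 0.22 (95% interval -0.60 to 0.32; adjusted p = 0.801). The differences among the 3 genes were not tested.

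The other called members of complex V belong to its stalks and membrane sector. ATP5PB, the b subunit of the peripheral stalk, read 13.03, 13.08, 13.03 and 13.04 with vehicle and 12.62, 12.50, 12.51 and 12.66 with PP242, a tight pair of groups that lie far apart for their spread (-0.47 ± 0.09, adjusted p = 0.00109). ATP5PO, the subunit that joins that stalk to the catalytic head, read 12.89, 12.93, 12.64 and 12.80 and then 12.50, 12.39, 12.26 and 12.48 (-0.41 ± 0.12, adjusted p = 0.0273). ATP5F1C, the rotating central shaft, read 12.29, 12.42, 12.12 and 12.02 and then 11.96, 11.90, 11.25 and 11.68 (-0.52 ± 0.17, adjusted p = 0.0486). ATP5MG, a small membrane subunit near the dimer interface, was at 12.10 to 12.24 with vehicle and 11.56 to 11.87 with PP242 (-0.46 ± 0.12, adjusted p = 0.0151). In each of these 4 genes every PP242 array lay below every vehicle array.

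The alpha and beta subunits of the catalytic head were not called in either fit, and the median of the 17 genes was -0.22. ATP5F1B, the catalytic beta subunit, was at 12.87 to 13.02 with vehicle and 12.80 to 12.92 with PP242 (-0.10 ± 0.12, adjusted p = 0.737). ATP5F1A, the alpha subunit, had no overlap (13.56 to 13.76 against 13.39 to 13.49) but missed the threshold at -0.22 ± 0.09 (adjusted p = 0.055 with the block and 0.122 without). ATP5PF of the peripheral stalk stood at -0.32 ± 0.14 and passed with the block (adjusted p = 0.00613; 0.148 without it). The values above 0 in this complex were limited to ATP5ME (0.08 ± 0.11, adjusted p = 0.793). As a mean over its 17 genes, complex V read 11.71, 11.69, 11.51 and 11.62 with vehicle and 11.48, 11.33, 11.24 and 11.38 with PP242, so the groups of arrays did not overlap.

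**Figure D2:**
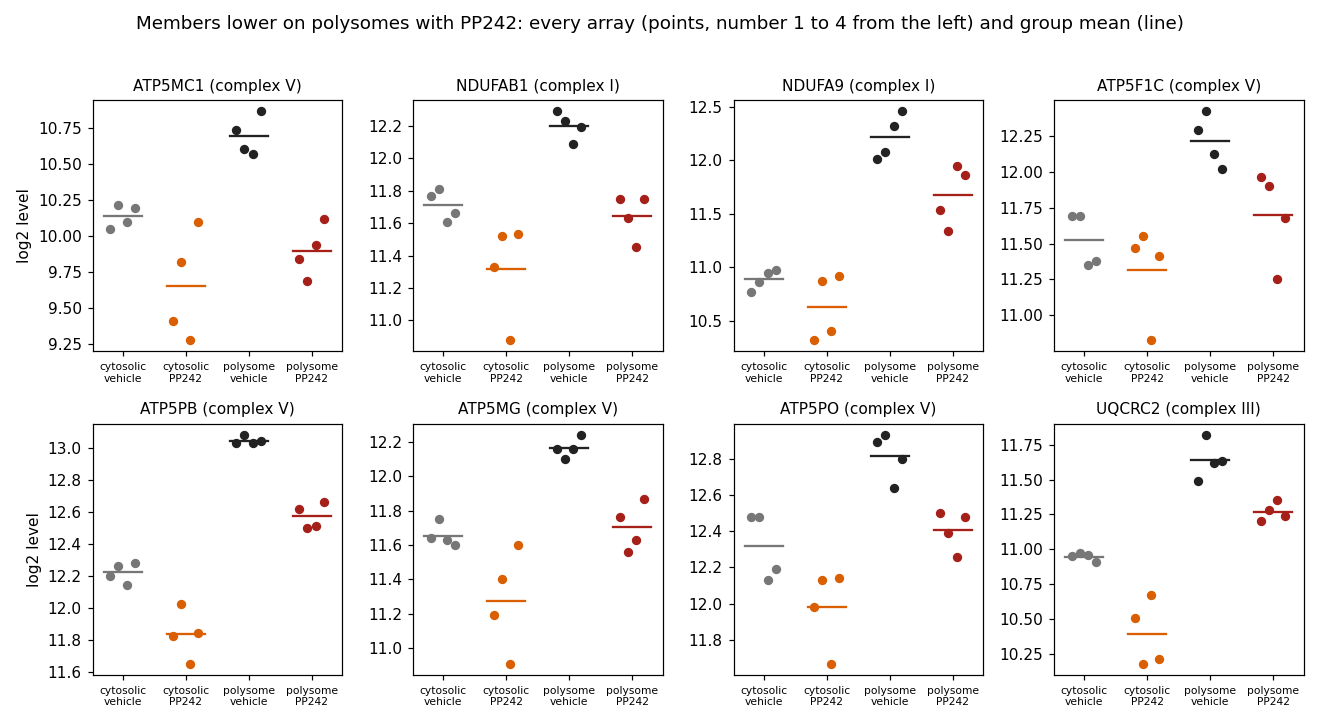
Log2 level (y axis, a separate range in each panel) of the 8 members that fell on polysomes, on each array (points, replicates 1 to 4 from the left) in the 4 groups, with the group mean as a line. In all 8 panels the polysome PP242 points lie below the polysome vehicle points, and the cytosolic PP242 points scatter most.

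In complex I, NDUFAB1 and NDUFA9 fell. NDUFAB1 is the mitochondrial acyl carrier protein, which sits in complex I and also serves mitochondrial fatty acid synthesis. It read 12.29, 12.23, 12.09 and 12.19 with vehicle and 11.75, 11.63, 11.45 and 11.75 with PP242 (-0.56 ± 0.13, adjusted p = 0.00528), with no overlap. NDUFA9, an accessory subunit of the matrix arm, read 12.01, 12.08, 12.32 and 12.46 and then 11.54, 11.34, 11.95 and 11.86 (-0.55 ± 0.16, adjusted p = 0.0245), also with no overlap. The median of the 33 genes was -0.19, and 28 were below 0.

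Core subunits of the matrix arm had differing values, which were not tested against each other. NDUFV2 and NDUFS3, named after their values were seen, stood at -0.46 ± 0.16 and -0.40 ± 0.16 and passed with the block only (adjusted p = 0.00908 and 0.0194; 0.0757 and 0.108 without). NDUFS1, the largest iron-sulfur subunit, was at 10.00 to 10.31 with vehicle and 9.59 to 9.92 with PP242; it missed the threshold at -0.31 ± 0.11 (adjusted p = 0.0821) and passed with the block (adjusted p = 0.0319). NDUFV1, which binds the flavin that takes electrons from NADH, read 11.61, 11.69, 11.49 and 11.33 with vehicle and 11.85, 11.60, 11.89 and 11.61 with PP242 (0.21 ± 0.16, adjusted p = 0.519). Its groups overlapped. NDUFA13, also known as GRIM-19, was at 11.74 to 12.10 with vehicle and 12.13 to 12.21 with PP242, the highest difference of the complex (0.23 ± 0.18, adjusted p = 0.516).

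Complexes II and III lay below 0 in every member. UQCRC2, core protein of complex III, read 11.49, 11.82, 11.62 and 11.63 with vehicle and 11.20, 11.28, 11.35 and 11.24 with PP242, without overlap (-0.37 ± 0.11, adjusted p = 0.0327). CYC1, cytochrome c1, was at 11.54 to 11.74 and then 11.28 to 11.35, without overlap, and passed with the block only (-0.35 ± 0.12, adjusted p = 0.0154 with it and 0.0607 without). UQCRC1, the other core protein, showed no detectable difference (-0.04 ± 0.14, 95% interval -0.32 to 0.25). The median of complex III was -0.28. In complex II the median of 3 genes was -0.33. The membrane anchors SDHD (-0.41 ± 0.16) and SDHC (-0.33 ± 0.17) passed with the block (adjusted p = 0.00433 and 0.0432; 0.1 and 0.238 without it), whereas the flavoprotein SDHA stood at -0.07 ± 0.17 and was not called in either fit (adjusted p = 0.727 with the block and 0.873 without).

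Complex IV had a median of -0.09 and 10 of 15 genes below 0. Over its genes with a mean of at least 5 the median was -0.14, and it was -0.05 with cyclic loess. COX4I1, which is needed for assembly of the complex, read 13.54, 13.62, 13.59 and 13.61 with vehicle and 13.43, 13.52, 13.42 and 13.43 with PP242. These groups did not overlap, but the gap was small (-0.14 ± 0.10, adjusted p = 0.466). COX8A had the lowest value (-0.41 ± 0.16), which passed with the block only (adjusted p = 0.0177; 0.102 without). COX5B (0.04 ± 0.16, adjusted p = 0.940), COX6C (-0.19 ± 0.15, adjusted p = 0.531) and COX7A2 (0.15 ± 0.11, adjusted p = 0.439) were not called in either fit. No test compared 1 complex with another.

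**Figure D3:**
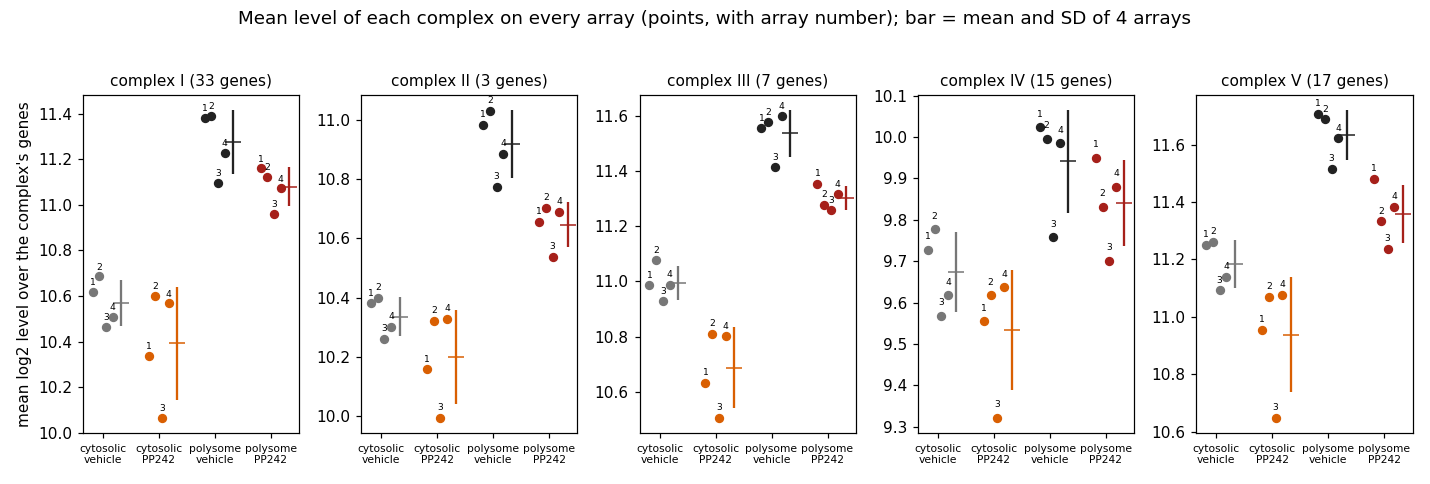
Mean log2 level over the genes of each complex (y axis, a separate range in each panel) on every array, with the replicate number beside each point and the mean and SD of 4 arrays as a bar. On polysomes the PP242 arrays lie below the vehicle arrays for complexes II, III and V, and for complexes I and IV they overlap; cytosolic PP242 arrays 2 and 4 lie within the range of cytosolic vehicle in complexes I, II and IV.

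Promoter stretches are printed for 6 members to show what surrounds the start sites of 5 called genes and of ATP5MC2, a c subunit gene that was not called. RefSeq promoters (GRCh38.p14, 250 bases before to 50 after the start) were matched for 64 of 75 members. Each line runs from 60 bases before the start to 20 after it on the gene's own strand, 5′ to 3′. Capitals mark CCAAT (a core bound by NFY), GCGCATGCG (bound by NRF1) and AAGATGG on either strand, or the first 5 bases of a pyrimidine-rich start. In NDUFA9 the capitals run on to the longer form AAGATGGCG. AAGATGG is the core of the YY1-type element and of the TISU element for short leaders. The called genes NDUFAB1, ATP5PB and ATP5MG are not printed. In the same stretch NDUFAB1 held none of these letters, ATP5PB held AAGATGG on the other strand, and ATP5MG held a pyrimidine-rich start.

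ATP5MC1, chr17:48892727-48892806, plus strand: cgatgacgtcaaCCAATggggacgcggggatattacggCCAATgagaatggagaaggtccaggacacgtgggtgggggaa
ATP5MC2, chr12:53676064-53676143, minus strand: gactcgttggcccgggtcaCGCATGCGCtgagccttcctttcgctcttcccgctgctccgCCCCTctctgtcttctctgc
ATP5F1C, chr10:7788117-7788196, plus strand: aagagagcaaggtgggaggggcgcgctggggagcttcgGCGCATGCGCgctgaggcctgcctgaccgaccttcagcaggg
ATP5PO, chr21:33915785-33915864, minus strand: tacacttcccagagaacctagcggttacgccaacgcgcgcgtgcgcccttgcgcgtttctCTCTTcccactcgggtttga
NDUFA9, chr12:4649054-4649133, plus strand: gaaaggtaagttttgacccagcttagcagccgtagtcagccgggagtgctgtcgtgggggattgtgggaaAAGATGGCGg
UQCRC2, chr16:21953301-21953380, plus strand: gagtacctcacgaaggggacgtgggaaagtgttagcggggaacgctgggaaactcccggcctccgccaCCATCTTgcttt

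Over the whole windows, GCGCATGCG was present on either strand in 10 of the 64 matched members (15.6%), against 2.1% of 27305 promoters and 2.76% of the 15843 of coding genes. CCGGAAGT, a core bound by ETS factors such as GABPA, was present in 9 (14.1%, against 4.44% of all). AAGATGGCG was present in 7 (10.9%, against 1.85%), 5 of them in complex I, and its shorter form AAGATGG, which also counts these, in 15 (23.4%, against 6.06%). CCAAT was as common in members (22, or 34.4%) as in all promoters (35.7%). A start at C followed by 4 pyrimidines, the form of a terminal oligopyrimidine start, was present in 8 members (12.5%, against 4.04%). With 3 pyrimidines it was present in 9 (14.1%, against 5.45%). Among the promoters of coding genes alone, CCGGAAGT was in 6.19%, AAGATGGCG in 2.74%, AAGATGG in 6.4% and CCAAT in 36.4%. The starts with 4 and 3 pyrimidines were in 4.6% and 5.77% of them.

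Of the 8 genes that fell on polysomes, AAGATGG was found in 5, the C and 4 pyrimidine start in 2 (ATP5PO and ATP5MG), CCAAT in 2, GCGCATGCG in 1 (ATP5F1C) and CCGGAAGT in 0. The median polysome difference was -0.30 in the 10 members with GCGCATGCG and -0.18 in the 54 without it. It was -0.29 in the 15 members with AAGATGG and -0.17 in the 49 without it. With the pyrimidine start it was -0.12 in 8 members and -0.22 in the 56 without. These medians were not tested, and a match of letters shows neither binding nor the start site used in these cells.

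In cytosolic RNA the members were also lower with PP242. More of them passed the test than on polysomes in the main fit, which shares 1 spread over the 4 groups. Of the 75, 18 fell and 1, NDUFV1, rose: 4 of complex I, 1 of complex II, 3 each of complexes III and IV, and 7 of complex V fell. That order depends on the shared spread, since the cytosolic PP242 arrays varied most. With each pool fitted on its own 8 arrays, fewer members were called in cytosolic RNA than on polysomes. That fit kept 10 of the 19 cytosolic calls and all 8 polysome calls. Over all genes 7.91% fell and 8.54% rose, and 18.6% of the genes with a mean of at least 9 fell, against 25.7% of the bright members. The median over members was -0.20, against 0.04 over all genes and -0.04 over the bright genes. Groups did not overlap on the lower side in 15 members (21.4% of the bright ones), against 8.34% of all genes and 19.4% of the bright genes. With the block 27 members fell and 1 rose, where 11% of all genes fell and 13.9% rose; 25.5% of the bright genes fell, against 38.6% of the bright members.

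The cytosolic values depend on 2 arrays. The median difference over members was -0.28, -0.10, -0.38 and 0.03 for replicate numbers 1 to 4, so PP242 arrays 2 and 4 lay nearer to vehicle than 1 and 3. Array weights in limma were lowest for the same arrays, at 0.360 and 0.251. Without them the median was -0.36, 72 of 75 members were below 0, and 26 were called lower. As these 2 arrays had the smallest differences in the members, a lower median without them follows from that choice and is no added evidence. Leaving out replicate number 1, 2 or 4 from every group left 11, 7 and 10 members called.

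In complex V 7 of 17 genes fell in cytosolic RNA (8 with the block, where complex I had 10 of 33 and complex III 5 of 7). ATP5MC3 read 12.39, 12.47, 12.12 and 12.13 with vehicle and 11.91, 11.64, 11.16 and 11.67 with PP242 (-0.68 ± 0.16, adjusted p = 0.00632). ATP5PF read 12.07, 11.90, 11.71 and 11.68 and then 11.54, 11.33, 11.06 and 10.96 (-0.62 ± 0.14, adjusted p = 0.00368). Neither gene's groups overlapped. ATP5MC1 fell by 0.49 ± 0.15 (adjusted p = 0.0327), with PP242 array 4 at 10.10 inside the vehicle range of 10.05 to 10.22. ATP5PB fell by 0.39 ± 0.09 (adjusted p = 0.00512) without overlap, and ATP5F1E, the epsilon subunit of the central stalk, by 0.50 ± 0.12 (adjusted p = 0.00633). ATP5MC2 stood at 0.22 ± 0.22 and ATP5F1B at 0.11 ± 0.12, both uncalled (adjusted p = 0.537 and 0.593).

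The cytosolic extremes of the whole set were both in complex I. NDUFA5, an accessory subunit of the matrix arm, read 9.60, 9.44, 9.29 and 9.26 with vehicle and 8.47, 7.60, 8.94 and 6.97 with PP242, without overlap (-1.40 ± 0.29, adjusted p = 0.00212). Its PP242 arrays 2 and 4 were the lowest, opposite to most members, and their SD was 0.88 against 0.16 with vehicle. On polysomes the same gene was at 9.17 to 9.66 with vehicle and 8.89 to 9.59 with PP242 (-0.18 ± 0.29, adjusted p = 0.806). NDUFV1 read 9.73, 9.90, 9.86 and 9.94 with vehicle and 10.10, 10.71, 10.09 and 10.96 with PP242 (0.61 ± 0.16, adjusted p = 0.0143). Its highest values were on PP242 arrays 2 and 4, and without these the difference was 0.24 and no longer called (adjusted p = 0.281).

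In complexes II to IV the called cytosolic genes included SDHD, UQCRC2, UQCRB and COX7B, each without overlap between groups. COX7B, a small accessory subunit, fell by 0.58 ± 0.11 (adjusted p = 0.000965) and UQCRB, which lies beside the ubiquinone site, by 0.55 ± 0.11 (adjusted p = 0.00190). UQCRC2 fell by 0.56 ± 0.11 (adjusted p = 0.00196) and SDHD by 0.53 ± 0.16 (adjusted p = 0.0265). The remaining called genes, named to complete the count after their values were seen, were NDUFB3 (-0.48 ± 0.13), COX5A (-0.47 ± 0.13), NDUFB6 (-0.42 ± 0.14), ATP5MK (-0.39 ± 0.12) and UQCR11 (-0.37 ± 0.11), with COX7A2, NDUFAB1 and ATP5MG at -0.32, -0.40 and -0.38. Called in both pools were ATP5MC1, ATP5MG, ATP5PB, NDUFAB1 and UQCRC2, all lower, where 4.28% of all genes and 11.1% of the bright genes were called lower in both. With the block 17 members were called in both pools, all lower. By that fit 13.2% of all genes were called in the same direction in both, and 16.7% of the bright genes were lower in both. COXFA4, outside the set by its symbol, stood at -0.19 ± 0.17 on polysomes and fell by 0.55 ± 0.17 in cytosolic RNA (adjusted p = 0.0303).

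Whether an mRNA's share on polysomes moved was asked by the difference of the polysome and cytosolic effects. By this test 0 of 75 members and 0 of 19775 genes were called, with or without the block (0% of genes in both fits). At an unadjusted p under 0.05 there were 4 members and 1750 genes without the block, and 12 members and 2942 genes with it. The median over members was -0.02, against -0.04 over all genes; by complex it was -0.02, -0.18, 0.15, 0.05 and -0.07 for I to V. It was not stable in sign: it became 0.13 without cytosolic PP242 arrays 2 and 4, with 59 members above 0, and -0.12 without replicate number 3. The largest value was that of NDUFA5 (1.23 ± 0.41, 95% interval 0.38 to 2.07, adjusted p = 0.558), whose cytosolic PP242 arrays are the widely spread ones given above. COX7A2, with 0.47 ± 0.15 (adjusted p = 0.558), was higher on polysomes and lower in cytosolic RNA in all 4 replicate numbers. For ATP5MC1 the value was -0.31 ± 0.21 (95% interval -0.76 to 0.14; adjusted p = 0.636), an interval that includes 0.

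Fitting polysome levels on cytosolic levels plus treatment, an alternative, called 3 members, all lower, and 1.88% of all genes lower. They were ATP5MC1 (-0.73 ± 0.16, adjusted p = 0.0261), NDUFV2 (-0.43 ± 0.09, adjusted p = 0.0229) and NDUFS3 (-0.38 ± 0.09, adjusted p = 0.0309). The last 2 are the core subunits of complex I given above. The regression matches the pools by replicate number and estimates a slope for each gene, so it need not subtract the whole cytosolic difference. For ATP5MC1 its value lies nearer to the polysome difference of -0.80 than to the association value of -0.31.

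Respiratory chain mRNAs were more abundant in polysome than in cytosolic RNA, relative to other mRNAs, in either treatment. With vehicle, 51 of 75 members were called higher and 7 lower on polysomes, where 16.8% of all genes were higher and 35.9% lower. Of the genes with a mean of at least 9, 49.2% were higher, against 72.9% of the bright members. The median over members was 0.62, against -0.16 over all genes and 0.34 over the bright genes. By complex the medians were 0.68, 0.45, 0.77, 0.40 and 0.51 for I to V. With PP242, 53 members were higher and 5 lower (16.1% and 38.1% of all genes), with a median of 0.55.

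These loading values depend on the scale of the pools. After quantile normalization of all 16 arrays together the median of all genes moved from -0.16 to 0.03, and the median of members with vehicle to 0.30, with 33 called higher and 9 lower. Cyclic loess gave 0.02 and 0.28, with 34 higher and 10 lower. The share of higher among called genes of the array rose from 31.9% to 54.1% and 52.7%, and with PP242 from 29.7% to 51.5% and 52.4%. Thus a loading above or below 0, with its p-value, holds on the deposited scale only. What it describes is the order among mRNAs of the same arrays.

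**Figure D4:**
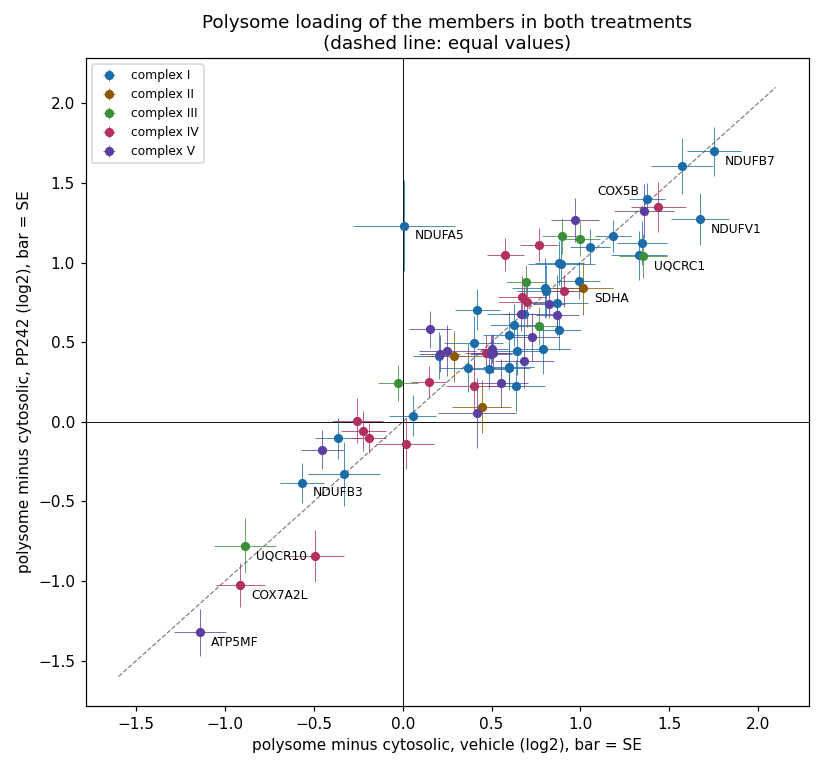
Polysome minus cytosolic level (log2) with vehicle (x axis) and with PP242 (y axis) for the 75 members, coloured by complex, with standard errors from limma as bars and the line of equal values dashed. Most points lie near the line, from the dim ATP5MF at -1.14 with vehicle to NDUFB7 at 1.75, and NDUFA5 lies above it at 0.01 with vehicle and 1.23 with PP242.

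Loading differed widely between subunits of the same complex. NDUFB7, in the membrane arm of complex I, read 8.79, 8.92, 8.64 and 8.69 in cytosolic and 10.71, 10.70, 10.31 and 10.33 in polysome RNA with vehicle (1.75 ± 0.15, adjusted p = 8.15e-08). NDUFV1 followed with 1.67 ± 0.16 (adjusted p = 2.28e-07). At the other end of complex I, NDUFB3 read 9.98, 9.98, 9.81 and 9.72 and then 9.37, 9.37, 9.20 and 9.28 (-0.57 ± 0.13, adjusted p = 0.000955). In all 3 genes the pools did not overlap.

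In complex III the core protein UQCRC1 stood at 1.35 ± 0.14 (adjusted p = 3.56e-07), and the small subunit UQCR10 at -0.89 ± 0.17 (adjusted p = 0.000313). In complex IV COX5B stood at 1.44 ± 0.16 (adjusted p = 8.03e-07) and COX7A2L, which joins complexes III and IV into supercomplexes, at -0.92 ± 0.14 (adjusted p = 2.57e-05). In complex V ATP5PD of the peripheral stalk stood at 1.36 ± 0.17 (adjusted p = 3.53e-06) and the dim ATP5MF at -1.14 ± 0.15 (adjusted p = 4.52e-06). ATP5MF was read by a single probe set with a mean of 5.20, and all 5 members with a mean under 6 lay below 0. Whether such values belong to the mRNA or to the probe set was not tested. SDHA stood at 1.02 ± 0.17 (adjusted p = 6.58e-05) and SDHD at 0.29 ± 0.16, which passed with the block only (adjusted p = 0.0152; 0.132 without). With PP242 each of these genes kept its direction on the deposited scale, from 1.70 ± 0.15 in NDUFB7 to -1.32 ± 0.15 in ATP5MF. The 2 treatments share no array in these comparisons.

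Several genes that serve the chain also fell on polysomes. Their counts stand beside 6.55% lower and 6.82% higher over all genes, or 9.72% and 10.6% with the block. Among the genes with a mean of at least 9 these shares were 17.7% and 9.28%, or 26.7% and 14.3% with the block. The lists mix such genes with dimmer ones, such as NDUFAF5 at a mean of 7.58. Of 16 complex I assembly factors 5 fell and 0 rose (7 and 0 with the block), with a median of -0.28 and all 16 below 0. NDUFAF5, which modifies a core subunit, fell by 0.71 ± 0.12 (adjusted p = 0.000519) and FOXRED1 by 0.66 ± 0.13 (adjusted p = 0.00127); ECSIT fell by 0.57 and COA1 by 0.49. Of 22 complex IV assembly factors 4 fell and 2 rose (6 and 2 with the block). SCO1, a copper chaperone, fell by 0.62 ± 0.12 (adjusted p = 0.00169), COX11 by 0.56 and COA4 by 0.48, whereas SURF1, an assembly factor mutated in Leigh syndrome, rose by 0.66 ± 0.13 (adjusted p = 0.00169). Of 6 complex III factors 1 rose, TTC19 (0.68 ± 0.12, adjusted p = 0.000829), and 0 fell, though UQCC3 passed with the block (-0.35, adjusted p = 0.0487 with it and 0.224 without). Of 5 complex V factors TMEM70 fell (-0.68 ± 0.17, adjusted p = 0.00895), and of 4 complex II factors 0 changed. In cytosolic RNA 4 of the complex I factors fell and 0 rose (5 and 0 with the block). Of the complex IV factors 3 fell there, COX11 by 0.90 among them, and 2 rose (7 and 3 with the block). In complexes II, III and V 1 factor each fell (1, 2 and 2 with the block), and 1 of complex III rose. Over all genes 7.91% fell and 8.54% rose in cytosolic RNA, or 11% and 13.9% with the block.

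Of 15 genes for electron carriers and ubiquinone synthesis 6 fell and 1 rose (8 and 2 with the block). CYCS, cytochrome c, named after its value was seen, fell by 0.76 ± 0.12 (adjusted p = 0.000239). PDSS1 and PDSS2, which make the isoprenoid tail of ubiquinone, fell by 0.84 ± 0.13 and 0.82 ± 0.12 (adjusted p = 0.000152 and 0.000120), COQ3 by 0.75 ± 0.10 and COQ2 by 0.69 ± 0.11 (adjusted p = 5.51e-05 and 0.000183). Of 14 measured genes of the citric acid cycle and pyruvate dehydrogenase 5 fell and 0 rose (7 and 0 with the block), with a median of -0.44; SUCLA2 fell by 0.85 ± 0.21, IDH3A by 0.65 ± 0.15, SUCLG1 by 0.53 ± 0.10 and DLAT by 0.51 ± 0.14. Of 12 regulators of mitochondrial biogenesis 2 fell and 0 rose (2 and 1 with the block). Those that fell were TFAM, which packages mitochondrial DNA (-0.45 ± 0.13, adjusted p = 0.0210), and GABPB1, partner of the ETS factor GABPA (-0.51 ± 0.16, adjusted p = 0.0431). NRF1 itself stood at -0.09 ± 0.14 (adjusted p = 0.803). In cytosolic RNA 5 of the cycle genes fell and 0 rose (6 and 1 with the block). Of the carrier and ubiquinone genes 6 fell there and 2 rose. Of the regulators 3 fell there and 0 rose (3 and 1 with the block). There SUCLA2 fell by 1.55, CYCS by 1.185, PDSS1 by 0.805, DLAT by 0.745 and TFAM by 0.635, while SUCLG1 was not called (-0.25). The association test called 0 genes of these lists or of the assembly factors.

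Subunits encoded in mitochondrial DNA, whose RNAs are translated inside mitochondria, did not share this direction. Of 7 measured, 4 rose on polysomes and 0 fell (5 and 0 with the block), with ND4 at 1.06 ± 0.17 (adjusted p = 0.000252), ATP6 at 0.97 ± 0.29 (0.0330), COX2 at 0.81 ± 0.16 (0.00184) and COX1 at 0.47 ± 0.15 (0.0442). ND6 stood at -0.19 ± 0.31 (adjusted p = 0.816). In cytosolic RNA 0 of 7 changed and 6 were below 0. Their median vehicle loading was -1.82.

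Other probe sets of the same genes were mostly alike in direction. Of the members 43 had several 1-gene probe sets, and 37 of the 72 probe sets not chosen had a mean of at least 6. In the polysome effect 29 of these 37 had the sign of the chosen probe set and 8 the opposite; in vehicle loading these were 24 and 13. For UQCRC2 another probe set, with a mean of 9.91 against 11.06 for the one used, stood at -0.71 on polysomes. For ATP5PO another, with a mean of 8.62, stood at -0.185 there, against -0.41 for the one used. For NDUFV1 a probe set with a mean of 6.33 had a vehicle loading of -0.60, against 1.67. With the mean of all probe sets of a gene, dim ones included, 5 of the 8 polysome calls were kept. Those of ATP5PB, ATP5PO and UQCRC2 were lost.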

How the data were processed

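RNA was measured on 16 Affymetrix arrays, 4 in each of 4 groups taken from the labels. The deposited values are log2 intensities made by RMA, per the submitters' processing notes; the labels' protocols describe a 10% to 50% sucrose gradient and a 3′ IVT kit. Values ran from 1.65 to 14.61 with 0 missing. Of the probe sets 1801 list several genes and 11721 are not in the gene table; these were left out. The probe set with the greatest mean stands for each of 19775 genes.

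Group means were fitted to all 16 arrays with limma 3.58.1 (R 4.3.3, statmod 1.5.0; lmFit, eBayes with an intensity trend), two-sided, with Benjamini-Hochberg adjustment over all genes and a call at adjusted p under 0.05. Errors after ± are limma standard errors unless SD is named. The contrasts were PP242 minus vehicle in each pool, the difference of those 2 (association), and polysome minus cytosolic in each treatment (loading).

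The replicate numbers in the labels were checked for pairing by correlating deviations from group means. All 16 pairs within compared groups had r between 0.164 and 0.510, and in 13 of them the same number was the best match. In the 8 pairs between groups not compared, r was as low as 0.0265. Arrays of the same number thus deviated together, but the labels do not say what the number marks. Values with the number as a block are given beside results of the 75 genes and counts of the lists where a call changes. The number of arrays limits the precision. The fits were also run on simulated data, in which a gene had the same spread in all groups and arrays of the same number were unrelated. That run therefore does not test how the fits handle the wider cytosolic PP242 spread or the replicate numbers.

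The rule for the 75 genes uses symbols only, but it and the gene lists were chosen with earlier results of these data known. Genes named are called members without overlap (up to 8 by size per direction and contrast), the extremes and the defining subunits of each complex, and the 4 called genes of lowest p in each pathway list; others are named as chosen after their values were seen. Promoter letters are from RefSeq, GRCh38.p14. Alternatives tried were other normalizations, the mean of probe sets, filters, array weights, the block, the regression, and leaving out arrays.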

Additional observations from a re-analysis of the deposited data

Results flagged for a closer look

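Of 168 groups of 4 arrays checked for 1 array far from the other 3, 7 were found, where chance gives about 1 in 20. On polysome vehicle replicate 3, ATP5F1E read 11.64 against 11.92 to 11.94 on the other arrays, and the mean of complex IV read 9.76 against 9.99 to 10.02. On polysome PP242 replicate 3, ATP5MC3 read 11.58 against 12.17 to 12.24 and SDHC read 9.84 against 10.05 to 10.09. ATP5F1E read 11.95 on polysome PP242 replicate 1, against 11.73 to 11.74. On polysome PP242 replicate 2, COX7A2 read 12.23 against 12.31 to 12.32 and COX4I1 read 13.52 against 13.42 to 13.43.

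COX7A2 moved in opposite directions in the pools: it was higher with PP242 in 4 of 4 replicate numbers on polysomes and lower in 4 of 4 in cytosolic RNA. The difference of the 2 effects was 0.47, which was not called by limma (adjusted p = 0.558).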

How the results depend on the processing

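The 8 members called in the polysome effect and the 19 called in the cytosolic effect kept their direction under every alternative run, and of the complex medians of these effects only the cytosolic one of complex II changed sign (0.0175 in the report's fit, and from -0.185 without cytosolic PP242 arrays 2 and 4 to 0.12 without replicate 3). ATP5MC1 was called on polysomes under each alternative except the fit to replicate numbers 3 and 4 only. With the replicate block 25 members were called on polysomes. Array weights, the fit to the 8 arrays of the pool and the fit without cytosolic PP242 arrays 2 and 4 called 17 each. Quantile normalization and cyclic loess called 5 each (with loess COX6A1 was higher, at 0.27), numbers 3 and 4 alone called 0, and a fold of at least 1.5 kept 1. In cytosolic RNA the 8 arrays of the pool called 10 members, numbers 1 and 2 called 11, and numbers 3 and 4 called 1. Leaving out each replicate number gave 2 to 9 calls on polysomes and 7 to 14 in cytosolic RNA. The association effect called 3 members by regression.

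Polysome medians moved to -0.10 (quantile), -0.10 (loess) and -0.26 (numbers 1 and 2) in complex I, -0.16 (mean of probe sets) in II, -0.12 (mean of probe sets), -0.17 (quantile) and -0.16 (loess) in III, and -0.10 (loess) in V. The cytosolic median of complex III became -0.18 with the mean of probe sets. The association median became 0.045 in complex II without cytosolic PP242 arrays 2 and 4, and -0.13 in III by regression. Vehicle loading medians, with the mean of probe sets, quantile and loess in turn, were 0.54, 0.34 and 0.36 (I), 0.034, 0.16 and 0.17 (II), 0.34, 0.41 and 0.39 (III), 0.0175, 0.15 and 0.14 (IV), and 0.16, 0.22 and 0.11 (V). In complex II it was 0.51 with array weights, 0.36 and 0.53 in numbers 1 and 2 and in 3 and 4, and 0.41 to 0.51 leaving out each replicate; in IV it was 0.58 over genes with a mean of at least 5. PP242 loading medians in the same order were 0.33, 0.34 and 0.33 (I), -0.01, 0.21 and 0.19 (II), 0.60, 0.60 and 0.57 (III), 0.16, 0.36 and 0.34 (IV), and 0.069, 0.12 and 0.069 (V). In complex IV it was 0.75 over genes with a mean of at least 5, 0.35 with array weights, 0.53 without cytosolic PP242 arrays 2 and 4, and 0.23 to 0.34 leaving out each replicate. The cause of these moves was not tested. Dim probe sets, 5 of the members, limit what can be read from those genes.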
